A study of Mus musculus with 9 samples.

Results

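Genes that copy DNA in S phase and genes that carry a cell through mitosis were followed in adult mouse hearts with and without Ezh2 in the cells of the anterior heart field lineage. The set held 40 named genes, 18 of replication and 22 of mitosis. Each was read at the probe set that carried its symbol alone and had the highest mean over all 9 arrays. By this rule 39 of the 40 genes were measured, of 19935 genes on the array: 18 of replication and 21 of mitosis. Ccnb1, a B-type cyclin, had no probe set with its symbol alone and was left out. Both groups were adults of a mixed C57BL/6 background, and the tissue was the right ventricle with the interventricular septum. The 5 wild-type hearts are given the genotype Ezh2f/f, without Cre, in one label and the heterozygous form Ez f/wt in their titles, and these labels were not reconciled. The 4 Ezh2-deficient hearts were Ezh2f/f;Mef2cAHF::Cre, so the floxed allele was shared by the groups and Cre was carried by the Ezh2-deficient hearts alone. An effect of Cre and an effect of losing Ezh2 cannot be told apart in this design. The Mef2c enhancer that drives this Cre acts in embryonic anterior heart field cells and their descendants, and cells of other origin keep Ezh2. The labels give no age beyond adult.

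A dividing cell first licenses its replication origins by loading the MCM helicase, then fires them in S phase, when polymerases and the sliding clamp copy the DNA from a supply of deoxynucleotides. The switch into S phase is thrown by E2F transcription factors together with cyclin E and Cdk2. Later, in G2 and M phase, cyclin A, cyclin B and Cdk1 start mitosis, kinases build the spindle, a checkpoint holds the chromosomes until all are attached, and cytokinesis parts the daughter cells. Genes of the S phase group are classically controlled through E2F elements, and those of the mitosis group through a CHR element near the start of the gene, often with CCAAT boxes. Most cardiomyocytes of the adult mouse heart have left the cell cycle, whereas fibroblasts, endothelial cells and blood-derived cells can still divide. Ezh2 is the histone methyltransferase of Polycomb repressive complex 2.

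No gene of either group passed the test. In the comparison of 4 Ezh2-deficient with 5 wild-type hearts, 0 of 18 replication genes and 0 of 21 mitosis genes had an adjusted p under 0.05 (limma, two-sided, Benjamini-Hochberg over 28815 probe sets). The background was low: 0.0451% of all genes (9 of 19935) and 0.0347% of all probe sets passed. The mean was higher in Ezh2-deficient hearts for 17 of 18 replication genes and for 21 of 21 mitosis genes, against 48.4% of all genes. The genes were chosen with earlier results of these data known. Most mitosis genes also shared an order of hearts, given below, so counts of genes here are not counts of independent outcomes. At an unadjusted p under 0.05, 5 replication genes (Mcm5, Mcm6, Rrm2, Tyms and E2f1) and 9 mitosis genes were higher, where 5.77% of all genes were. Of the members, 0 were lower at that level, where 5.78% of all genes were, and 0 were lower with no overlap between the groups, where 2.19% were. The median difference on the log2 scale was 0.11 over the replication genes, or 1.08-fold, and 0.38 over the mitosis genes, or 1.31-fold. Over all genes it was -0.003. The mitosis genes also spread more between hearts of one genotype. Their median SD among wild-type hearts was 0.36 on the log2 scale, against 0.13 for the replication genes and 0.0957 for all genes. Standard errors were accordingly larger for mitosis genes (median 0.179) than for replication genes (0.0724). In whole tissue, a difference in the number of dividing cells and a difference in RNA per dividing cell cannot be told apart.

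**Figure D1:**
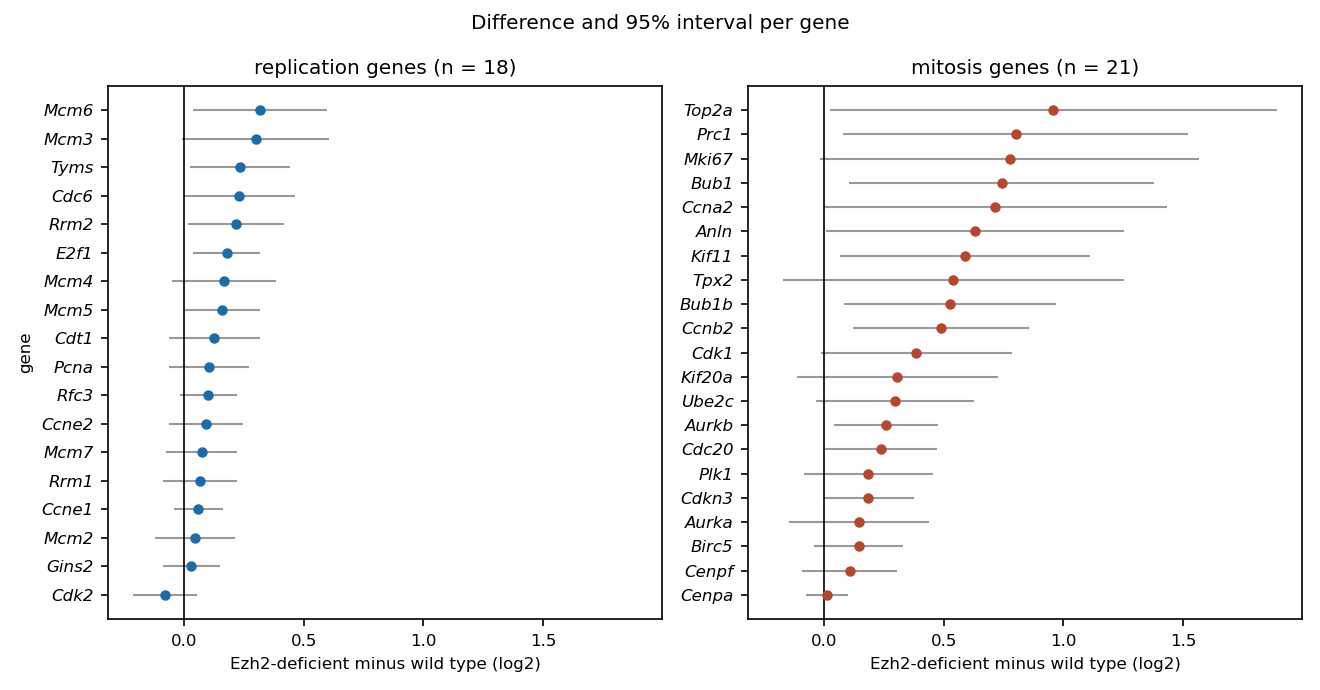
Difference between Ezh2-deficient (n = 4) and wild-type (n = 5) hearts for each gene, on the log2 scale (horizontal axis), with its 95% interval from limma; replication genes are on the left and mitosis genes on the right. Replication genes lie between -0.08 and 0.32 and mitosis genes between 0.01 and 0.96, and the longest intervals belong to the mitosis genes with the largest differences.

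Some features of the whole set of arrays bear on these values. The median log2 value of an array was 7.19 to 7.25. Any 2 arrays correlated across probe sets with a Pearson's r of 0.9897 to 0.9973. Ezh2 itself read 8.73 ± 0.12 in wild-type hearts (SD, n = 5) and 8.88 ± 0.11 in Ezh2-deficient hearts (SD, n = 4). Its adjusted p was 0.485 (limma), and its groups overlapped, so that its level does not check the labels; whether the probe set reads the deleted part is not known here. As a check of the tissue, the lowest value of any of the 13 cardiomyocyte markers in any heart was 12.08. Y-linked genes marked 1 wild-type heart (number 4) and 2 Ezh2-deficient hearts (numbers 1 and 3) as female. Sample titles carry a letter, e or x, whose meaning the labels do not state. Wild-type hearts 1 and 2 and Ezh2-deficient hearts 1 and 4 carry e, and the other 5 hearts carry x. Mean levels of 7 replication and 16 mitosis genes lay below the lowest array median.

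Promoters of the replication and the mitosis genes held different short elements, which the choice of genes did not use. RefSeq promoter windows of the GRCm38.p6 build, reaching from 250 bases before the start of the gene to 50 bases after it, were matched by symbol for 33 of the 40 genes, Ccnb1 among them. Mcm4, Ccne2, Gins2, Ccna2, Aurkb, Kif20a and Tpx2 were not matched. The E2F element was searched as TTTCCCGC, TTTGGCGC, TTTCGCGC or TTTGCCGC, the CHR element as TTTGAA or TTCGAA and the CCAAT box as CCAAT, all on both strands. TTCGAA is its own reverse complement, and matches of 1 element may overlap. An E2F element lay in the windows of 8 of 15 replication genes (53.3%) and of 1 of 18 mitosis genes (5.56%), Cdk1, against 2.61% of all 27025 genes in the table and 2.27% of its 32851 windows. A CHR element lay in those of 3 of 15 replication genes (20.0%) and 16 of 18 mitosis genes (88.9%), against 21.7% of all genes and 19.2% of all windows. The mitosis genes without one were Birc5 and Ccnb1. CCAAT boxes were in windows of 10 of 15 replication genes (66.7%) and 16 of 18 mitosis genes (88.9%), against 41.1% of all genes and 37.4% of all windows. Both a CHR element and a CCAAT box were present for 15 of 18 mitosis genes and 3 of 15 replication genes, where 7.53% of all windows had both. The members were counted per gene over all their windows, and the share of all genes with both was not computed. These shares were not tested, and a match only describes the letters in the window.

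**Figure D2:**
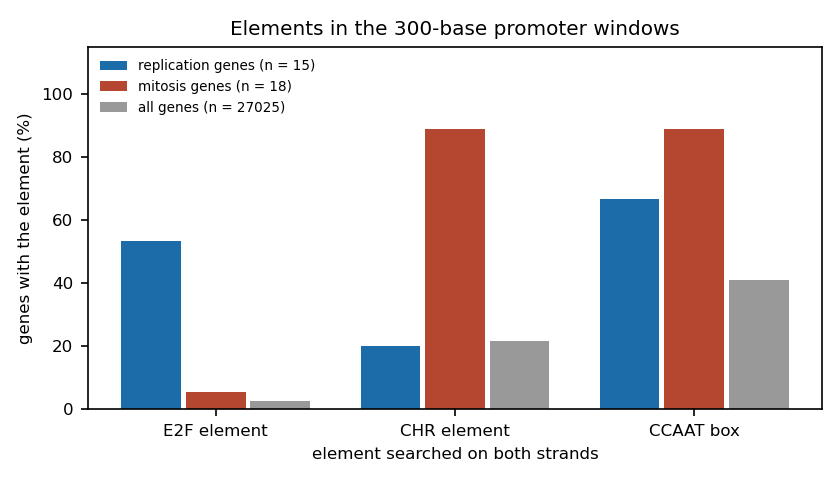
Share of genes with at least 1 promoter window of 300 bases that holds each element on either strand (vertical axis, %), for replication genes (n = 15), mitosis genes (n = 18) and all genes in the table (n = 27025). The E2F element is most frequent among replication genes (53.3%) and the CHR element among mitosis genes (88.9%).

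Windows are shown for 3 of the replication genes that hold the E2F element without a CHR element. Mcm5, Cdt1 and Cdk2 also held an E2F element without a CHR element and are not shown. Mcm3 and Mcm6 encode helicase subunits with the largest differences of the replication group, and Cdc6 encodes the loader of that helicase. Each runs 5′ to 3′ along the gene, and capitals mark E2F elements and CCAAT boxes on either strand.
Mcm3 promoter, chr1:20820263-20820562, minus strand: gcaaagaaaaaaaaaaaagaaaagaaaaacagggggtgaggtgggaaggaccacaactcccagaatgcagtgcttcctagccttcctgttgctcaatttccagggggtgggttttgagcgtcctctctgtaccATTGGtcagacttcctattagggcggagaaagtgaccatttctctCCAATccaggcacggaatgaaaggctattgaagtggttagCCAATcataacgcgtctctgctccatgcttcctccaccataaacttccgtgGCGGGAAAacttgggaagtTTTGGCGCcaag
Mcm6 promoter, chr1:128359656-128359955, minus strand: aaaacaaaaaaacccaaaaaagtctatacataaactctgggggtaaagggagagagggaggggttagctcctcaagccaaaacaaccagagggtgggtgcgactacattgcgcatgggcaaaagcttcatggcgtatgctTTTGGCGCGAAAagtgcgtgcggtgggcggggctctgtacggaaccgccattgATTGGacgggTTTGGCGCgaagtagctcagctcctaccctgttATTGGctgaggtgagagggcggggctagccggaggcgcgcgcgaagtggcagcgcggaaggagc
Cdc6 promoter, chr11:98907901-98908200, plus strand: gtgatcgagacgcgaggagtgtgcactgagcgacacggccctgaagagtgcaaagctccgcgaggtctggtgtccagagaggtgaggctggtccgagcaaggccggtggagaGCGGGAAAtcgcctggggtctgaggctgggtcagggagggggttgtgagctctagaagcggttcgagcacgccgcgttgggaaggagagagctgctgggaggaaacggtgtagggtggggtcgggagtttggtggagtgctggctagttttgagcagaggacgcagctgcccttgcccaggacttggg
The Mcm3 window held 2 E2F elements, both after the start of the gene. In the Mcm6 window there were 3, of which a pair overlaps and shows as a single run of capitals. Over the 8 replication genes with an E2F element, the one nearest to the start lay at a median position of -23, where the first base of the gene is 1.

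Windows of 5 mitosis genes follow, among them Top2a and Prc1, with the largest differences, Ccnb2, with the smallest p, the checkpoint kinase gene Bub1, and Cdk1, the only one of the 18 mitosis genes with an E2F element. Capitals mark CHR elements, CCAAT boxes and, in Cdk1, the E2F element.
Top2a promoter, chr11:99024140-99024439, minus strand: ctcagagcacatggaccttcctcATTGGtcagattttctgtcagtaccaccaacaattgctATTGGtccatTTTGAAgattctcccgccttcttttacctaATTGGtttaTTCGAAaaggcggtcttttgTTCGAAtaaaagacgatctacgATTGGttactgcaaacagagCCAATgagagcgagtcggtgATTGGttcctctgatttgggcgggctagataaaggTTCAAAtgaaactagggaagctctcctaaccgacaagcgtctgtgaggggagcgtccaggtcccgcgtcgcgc
Prc1 promoter, chr7:80294201-80294500, plus strand: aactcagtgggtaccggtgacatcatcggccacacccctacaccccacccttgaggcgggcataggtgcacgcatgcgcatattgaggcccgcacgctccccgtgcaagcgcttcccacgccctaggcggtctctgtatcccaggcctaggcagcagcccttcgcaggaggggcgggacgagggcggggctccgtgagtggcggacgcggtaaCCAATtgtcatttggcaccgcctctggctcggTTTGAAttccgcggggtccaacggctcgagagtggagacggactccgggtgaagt
Ccnb2 promoter, chr9:70421505-70421804, minus strand: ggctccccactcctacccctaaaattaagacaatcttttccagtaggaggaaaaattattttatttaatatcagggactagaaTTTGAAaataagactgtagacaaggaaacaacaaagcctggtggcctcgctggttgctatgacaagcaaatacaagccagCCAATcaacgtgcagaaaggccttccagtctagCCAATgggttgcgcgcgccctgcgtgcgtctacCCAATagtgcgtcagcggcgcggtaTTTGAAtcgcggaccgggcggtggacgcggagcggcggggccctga
Bub1 promoter, chr2:127831810-127832109, minus strand: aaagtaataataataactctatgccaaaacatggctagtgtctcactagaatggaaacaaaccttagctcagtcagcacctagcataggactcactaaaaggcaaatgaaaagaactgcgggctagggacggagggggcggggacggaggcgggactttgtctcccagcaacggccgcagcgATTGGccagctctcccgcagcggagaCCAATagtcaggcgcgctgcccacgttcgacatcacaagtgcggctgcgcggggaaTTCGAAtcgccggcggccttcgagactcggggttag
Cdk1 promoter, chr10:69352863-69353162, minus strand: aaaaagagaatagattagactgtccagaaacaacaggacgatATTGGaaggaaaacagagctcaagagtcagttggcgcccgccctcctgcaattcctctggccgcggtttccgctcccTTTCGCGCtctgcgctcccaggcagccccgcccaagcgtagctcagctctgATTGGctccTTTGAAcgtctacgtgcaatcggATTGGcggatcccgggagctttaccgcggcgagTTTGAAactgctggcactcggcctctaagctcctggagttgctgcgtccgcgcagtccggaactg
The Top2a window held 4 CHR elements and 6 CCAAT boxes, and the Prc1 window 1 of each. Over the 16 mitosis genes with a CHR element, the nearest one lay at a median position of -1, and over the 16 with a CCAAT box the nearest box lay at -46.5. Among the replication genes, the median difference between genotypes was 0.14 for the 8 genes with an E2F match and 0.10 for the 7 with no match (log2 scale). The ranges overlapped, from -0.08 to 0.32 and from 0.05 to 0.23, and the difference between them was not tested. The genes with no match were Pcna, E2f1, Tyms, Mcm2, Ccne1, Rrm1 and Rrm2. The search covered only the listed letters in these windows, so no match does not mean that a gene lacks E2F control. For the other elements the medians of the replication genes went the other way. They were 0.07 for the 3 genes with a CHR element and 0.17 for the 12 without. For the CCAAT box they were 0.10 for the 10 genes with one and 0.18 for the 5 without, and these too were not tested.

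Among the replication genes, the 9 genes of the helicase and of origin licensing all had a higher mean in Ezh2-deficient hearts, with a median difference of 0.16 on the log2 scale, and 0 passed. Mcm6 had the largest difference of the group. It read 7.99, 7.49, 7.91, 7.85 and 7.50 in wild-type hearts 1 to 5 and 8.33, 7.99, 8.02 and 7.91 in Ezh2-deficient hearts 1 to 4. Wild-type hearts 2 and 5 were low and Ezh2-deficient heart 1 was high, and the groups overlapped only through wild-type heart 1, with wild-type heart 3 just below the lowest Ezh2-deficient heart. The difference was 0.32 with a standard error of 0.13 and an adjusted p of 0.409 (limma). Mcm3, another helicase subunit, read 8.04, 7.80, 7.82, 7.60 and 7.29 in wild-type and 8.19, 7.81, 8.05 and 7.98 in Ezh2-deficient hearts. Wild-type heart 5 was the low one here, and wild-type heart 1 lay above 2 of the 4 Ezh2-deficient hearts. Mcm3 differed by 0.30 with a standard error of 0.14 (limma, adjusted p = 0.48).

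Mcm2 encodes another subunit of the same ring. Its values were 7.89, 7.78, 7.74, 7.67 and 7.53 in wild-type and 7.87, 7.64, 7.79 and 7.77 in Ezh2-deficient hearts. The highest value belonged to wild-type heart 1, and the groups overlapped over most of their range. The difference of 0.05 had a standard error of 0.07 and a 95% interval from -0.12 to 0.21 (limma, adjusted p = 0.864). It turned to -0.04 without wild-type hearts 4 and 5, to -0.01 among the hearts of letter e and to -0.0022 without wild-type heart 5 alone. The other 6 genes of origin licensing lay between Mcm2 and Mcm6, apart from Gins2. Mcm4 differed by 0.17 (standard error 0.10), Mcm5 by 0.16 (0.07) and Mcm7 by 0.07 (0.07). Cdc6, which loads the helicase with Cdt1, differed by 0.23 (0.10), and Cdt1 by 0.13 (0.09). Gins2, part of the active helicase, differed by 0.03 (0.05).

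At the replication fork, Pcna encodes the sliding clamp of the DNA polymerases. It read 9.69, 9.43, 9.56, 9.76 and 9.56 in wild-type and 9.74, 9.58, 9.83 and 9.67 in Ezh2-deficient hearts. Wild-type heart 4 was second only to Ezh2-deficient heart 3, and the groups overlapped. The difference was 0.10 with a standard error of 0.08 (limma, adjusted p = 0.652). A second Pcna probe set gave nearly the same values in every heart, with the same difference of 0.10. Pcna has annotated pseudogene copies, so its signal is uncertain. Rfc3, a subunit of the factor that loads the clamp, differed by 0.10 with a standard error of 0.05.

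The 3 genes of deoxynucleotide supply all had higher means, with a median difference of 0.22. Tyms, thymidylate synthase, read 6.68, 6.30, 6.24, 6.52 and 6.31 in wild-type and 6.59, 6.60, 6.59 and 6.79 in Ezh2-deficient hearts. Ezh2-deficient hearts 1 to 3 were nearly level while heart 4 stood above them, and wild-type heart 1 lay above all but that one. Tyms differed by 0.23 with a standard error of 0.09 (limma, adjusted p = 0.412). Rrm2, the regulated subunit of ribonucleotide reductase, read 7.17, 7.13, 7.002, 6.81 and 6.83 in wild-type and 7.19, 7.13, 7.13 and 7.37 in Ezh2-deficient hearts. Its low hearts were wild type 4 and 5, and wild-type hearts 1 and 2 lay among the Ezh2-deficient values. The difference was 0.22 with a standard error of 0.09 (limma, adjusted p = 0.426). Rrm1, the large subunit of that enzyme, differed by 0.07 (standard error 0.07).

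At the switch from G1 to S, E2f1 was the only one of the 39 genes whose groups did not overlap. In the higher direction 2.10% of all genes were separated, so this count lay near the share of all genes. E2f1, a transcriptional activator of S phase genes, read 6.34, 6.28, 6.35, 6.30 and 6.13 in wild-type and 6.45, 6.39, 6.60 and 6.39 in Ezh2-deficient hearts. Every Ezh2-deficient heart lay above every wild-type heart, by a narrow margin, and Ezh2-deficient heart 3 was the highest. The difference was 0.18 with a standard error of 0.06 and a 95% interval from 0.04 to 0.32, and its adjusted p of 0.358 (limma) was the lowest of the replication genes. Over 20 alternative settings the difference stayed between 0.11 and 0.24 and the adjusted p between 0.289 and 0.688. Its partners at this switch lay closer to 0. Ccne1, a cyclin E, read 6.68, 6.80, 6.88, 6.79 and 6.81 in wild-type and 6.87, 6.83, 6.85 and 6.86 in Ezh2-deficient hearts. The Ezh2-deficient values were tight and fell within the wild-type range, whose low heart was number 1. The difference was 0.06 with a standard error of 0.05 (limma, adjusted p = 0.668). Ccne2, the other cyclin E, differed by 0.09 (standard error 0.07). Cdk2, the kinase that cyclin E activates, was the only member with a lower mean, at -0.08 (0.06). Both differences rested largely on Ezh2-deficient heart 3, as the other Ezh2-deficient hearts shared 1 value for each gene. Ccne2 read 6.31 in heart 3 and 6.03 in the others, and Cdk2 8.31 and 8.54. Without that heart Ccne2 differed by 0.02 (0.05) and Cdk2 by -0.02 (0.04).

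Among the mitosis genes, the 2 marks of proliferating cells differed by a median of 0.87, and Top2a had the largest difference of all 39 genes. Top2a, the topoisomerase that untangles sister chromosomes, read 8.24, 7.14, 7.21, 6.68 and 5.88 in wild-type hearts 1 to 5 and 8.36, 7.33, 7.80 and 8.46 in Ezh2-deficient hearts 1 to 4. Wild-type heart 1 stood with Ezh2-deficient hearts 1 and 4 at the top and wild-type heart 5 far below the rest. The difference was 0.96, or 1.94-fold, with a standard error of 0.42 and a 95% interval from 0.02 to 1.89 (limma, adjusted p = 0.456). A second, dim Top2a probe set differed by 0.11 (limma, adjusted p = 0.66). Mki67, which encodes the Ki-67 protein of dividing cells, read 8.40, 7.64, 7.29, 7.005 and 6.37 in wild-type and 8.50, 7.71, 7.86 and 8.39 in Ezh2-deficient hearts. The same 3 hearts were high, and wild-type hearts 2 to 5 lay below every Ezh2-deficient heart. Mki67 differed by 0.77, or 1.71-fold, with a standard error of 0.36 (limma, adjusted p = 0.477).

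Of the cyclins and Cdk1, which start mitosis, 4 of 5 genes were measured, with a median difference of 0.44. Ccnb2, a B-type cyclin, had the lowest adjusted p of all 39 genes. It read 7.23, 6.82, 6.70, 6.37 and 6.54 in wild-type and 7.27, 6.91, 7.27 and 7.43 in Ezh2-deficient hearts. Wild-type heart 1 alone lay within the Ezh2-deficient range, and wild-type heart 4 was the lowest. The difference was 0.49 with a standard error of 0.16 and a 95% interval from 0.12 to 0.86 (limma, adjusted p = 0.34). Over the 20 alternative settings that adjusted p ranged from 0.118 to 0.709. Cdk1, the kinase of mitotic entry, read 7.08, 6.63, 6.38, 6.10 and 6.26 in wild-type and 7.01, 6.72, 6.72 and 7.04 in Ezh2-deficient hearts. Its highest value belonged to wild-type heart 1, and the other 4 wild-type hearts lay below all Ezh2-deficient hearts. Cdk1 differed by 0.38 with a standard error of 0.18 (limma, adjusted p = 0.48). Ccna2, cyclin A, differed by 0.72 (standard error 0.32), and Cdkn3, a phosphatase that acts on cyclin-dependent kinases, by 0.18 (0.09).

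Genes of the mitotic kinases and the spindle differed by a median of 0.36. Plk1, a kinase of centrosome maturation and spindle assembly, read 7.22, 7.04, 6.87, 6.73 and 6.75 in wild-type and 7.18, 6.84, 7.08 and 7.32 in Ezh2-deficient hearts. Wild-type hearts 1 to 3 lay above Ezh2-deficient heart 2, and the groups overlapped widely. The difference was 0.18 with a standard error of 0.12 (limma, adjusted p = 0.621). Aurka, the Aurora kinase of the spindle poles, differed by 0.15 (0.13), and Tpx2, which activates it on the spindle, by 0.54 (0.32). Kif11, the motor that pushes the spindle poles apart, differed by 0.59 (0.23).

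The 4 genes of the centromere and the chromosomal passenger complex differed less, by a median of 0.12. Aurkb, the Aurora kinase of that complex, read 7.20, 7.22, 7.09, 6.83 and 6.82 in wild-type and 7.25, 7.17, 7.34 and 7.40 in Ezh2-deficient hearts. Wild-type hearts 4 and 5 were low, and wild-type hearts 1 and 2 lay above Ezh2-deficient heart 2. The difference was 0.26 with a standard error of 0.10 (limma, adjusted p = 0.386). Birc5, the survivin subunit of the same complex, differed by 0.14 (0.08). Cenpf, a protein of the outer kinetochore, differed by 0.11 (0.09). Cenpa, the histone H3 variant of centromeres, had the smallest difference of the mitosis genes, 0.01 (0.04).

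The checkpoint and the ubiquitin ligase it restrains gave a median difference of 0.41 over 4 genes. Bub1, a checkpoint kinase at kinetochores, read 6.29, 5.64, 5.38, 5.17 and 4.68 in wild-type and 6.47, 5.77, 6.02 and 6.43 in Ezh2-deficient hearts. Wild-type heart 1 again stood among the Ezh2-deficient hearts and wild-type heart 5 was lowest. The difference was 0.74, or 1.67-fold, with a standard error of 0.28 (limma, adjusted p = 0.393). Bub1b, the inhibitor of the anaphase-promoting complex, read 6.67, 6.27, 6.09, 5.75 and 5.88 in wild-type and 6.84, 6.33, 6.44 and 7.02 in Ezh2-deficient hearts. Only wild-type heart 1 overlapped with the Ezh2-deficient range. Bub1b differed by 0.53 with a standard error of 0.20 (limma, adjusted p = 0.386). Cdc20, the activator of the anaphase-promoting complex, differed by 0.24 (0.10), and Ube2c, its ubiquitin-conjugating enzyme, by 0.30 (0.15).

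The 3 genes of cytokinesis had a median difference of 0.63. Prc1, which bundles the microtubules of the spindle midzone, read 7.26, 6.63, 6.10, 5.80 and 5.75 in wild-type and 7.44, 6.63, 6.80 and 7.57 in Ezh2-deficient hearts. Wild-type heart 1 lay above Ezh2-deficient hearts 2 and 3, wild-type heart 2 was level with Ezh2-deficient heart 2, and wild-type hearts 4 and 5 were low. The difference was 0.80, or 1.74-fold, with a standard error of 0.32 (limma, adjusted p = 0.416). Anln, an actin-binding scaffold of the cleavage furrow, differed by 0.63 (0.28), and Kif20a, a motor of the midzone, by 0.31 (0.19).

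**Figure D3:**
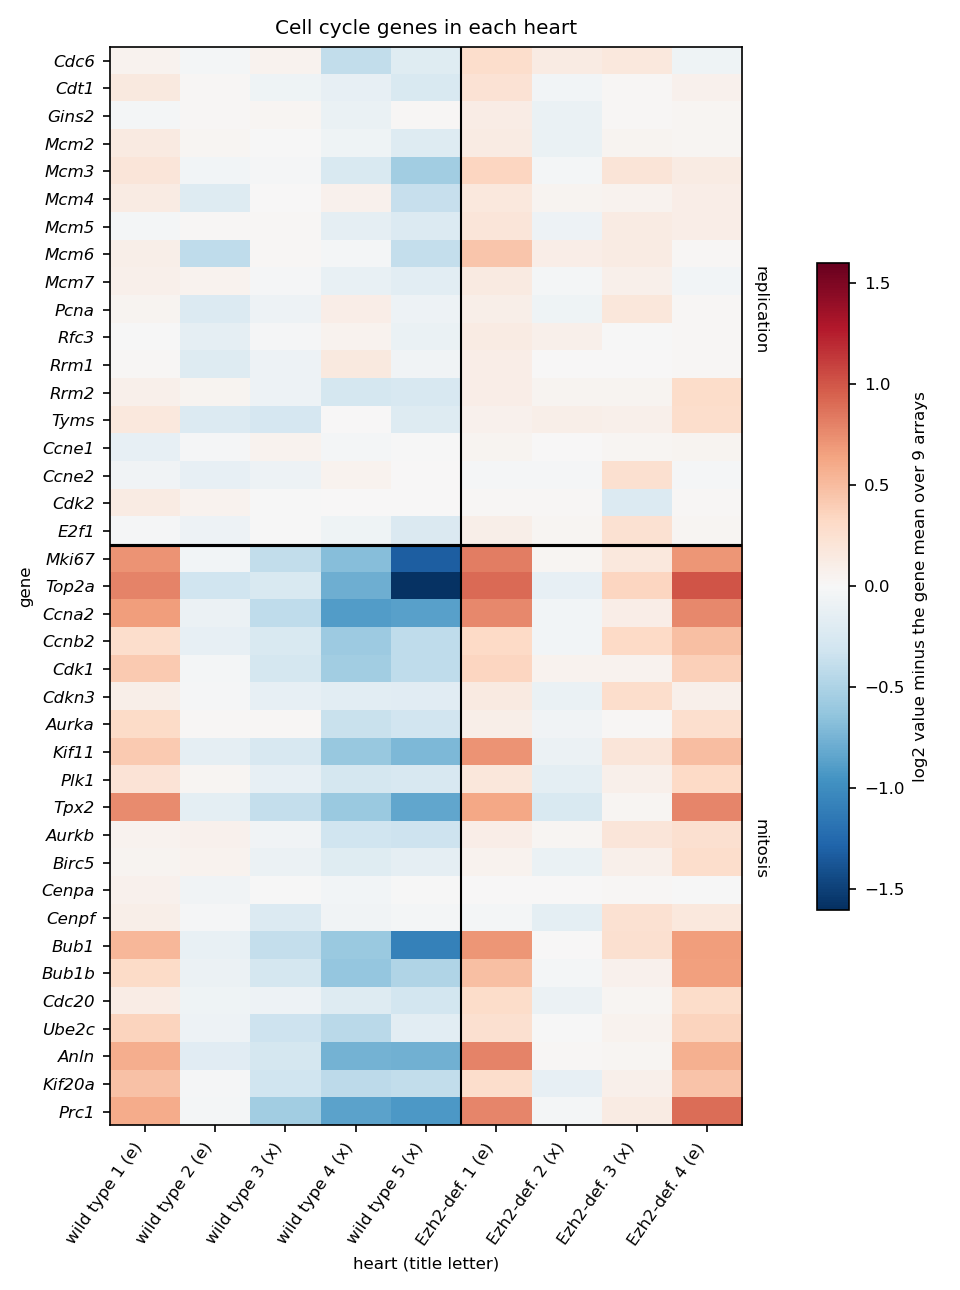
Each gene's log2 value minus its own mean over the 9 arrays (colour scale, red above and blue below the mean), with genes ordered by role within replication and mitosis (vertical axis) and hearts along the horizontal axis with the letter of their title. Across most mitosis genes wild-type heart 1 and Ezh2-deficient hearts 1 and 4 are high and wild-type hearts 4 and 5 low, and replication genes show smaller departures.

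The order of the hearts was much the same from one mitosis gene to the next. Wild-type heart 1 and Ezh2-deficient hearts 1 and 4 were the 3 highest hearts for 15 of 21 mitosis genes. The lowest value belonged to wild-type heart 5 for 10 genes and to wild-type heart 4 for 9. Both of these hearts lay below every Ezh2-deficient heart for 19 of 21 genes, while wild-type heart 1 lay above at least 2 Ezh2-deficient hearts for 18 of 21. For the replication genes the order was looser. The same 3 hearts were highest for 4 of 18 genes, Ezh2-deficient heart 1 was highest for 9, and wild-type hearts 4 and 5 lay below every Ezh2-deficient heart for 10.

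A mean over the genes of each group, after each gene was centred on its mean over all arrays, gives 1 value per heart. For the mitosis genes it was 0.38, -0.07, -0.24, -0.47 and -0.55 in wild-type hearts 1 to 5 and 0.41, -0.06, 0.13 and 0.47 in Ezh2-deficient hearts 1 to 4. Wild-type heart 1 was thus below only Ezh2-deficient hearts 1 and 4, and the wild-type hearts spanned 0.92, more than the difference of 0.43 between the genotype means. For the replication genes the values were 0.06, -0.08, -0.03, -0.06 and -0.18 in wild-type and 0.15, 0.01, 0.08 and 0.06 in Ezh2-deficient hearts. All wild-type hearts but number 1 lay below all Ezh2-deficient hearts, and the difference of the means was 0.13. The mitosis mean minus the replication mean was 0.32, 0.01, -0.21, -0.41 and -0.37 in wild-type and 0.26, -0.07, 0.05 and 0.41 in Ezh2-deficient hearts. The groups overlapped in this measure too. Its difference between genotypes was 0.30, against an SD of 0.30 among wild-type and 0.21 among Ezh2-deficient hearts, and without Mki67, Top2a and Prc1 the mitosis difference alone was 0.36. No p is given for these means, since the genes were chosen with results known.

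**Figure D4:**
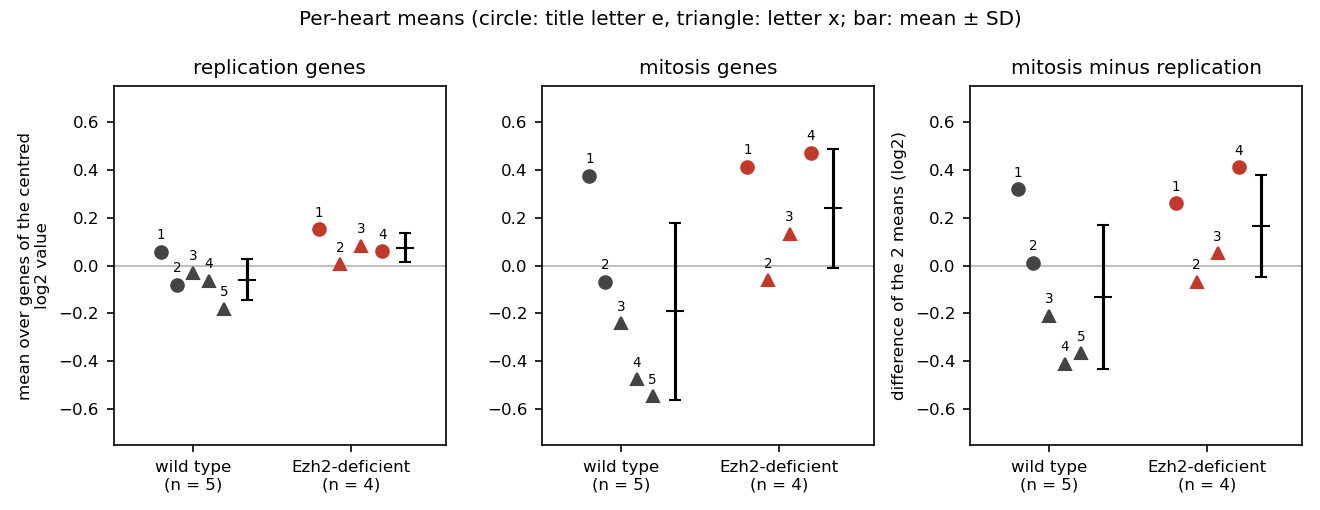
Per-heart means of the centred log2 values over the replication genes (left) and the mitosis genes (middle), and the mitosis mean minus the replication mean (right), for wild-type (n = 5) and Ezh2-deficient (n = 4) hearts; numbers name the hearts, circles carry the title letter e and triangles x, and bars give mean ± SD. In the middle panel wild-type heart 1 (0.38) lies among the Ezh2-deficient hearts and wild-type hearts 4 and 5 lie lowest (-0.47 and -0.55).

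The mitosis mean differed with the letter of the title as well as with genotype. Hearts of letter e exceeded those of letter x by 0.57 within wild type and by 0.41 within Ezh2-deficient hearts, against 0.08 and 0.06 for the replication mean. Within letter e the Ezh2-deficient hearts exceeded wild type by 0.29 in the mitosis mean, and within letter x by 0.46. For the replication mean these within-letter differences were 0.12 and 0.14. With the letter as a block, 15 of 21 mitosis and 6 of 18 replication genes were higher at an unadjusted p under 0.05, beside 6.67% of all genes. Still 0 of the 39 genes passed after adjustment, where 0.0590% of probe sets did, and the lowest adjusted p was 0.102, for Prc1 (limma). Within letter e alone, 1 gene of each group was higher at an unadjusted p under 0.05 (3.37% of all genes). Within letter x alone, 13 mitosis genes and 1 replication gene were (5.67% of all genes). With the Y-linked level as a covariate the counts were 6 and 2 (5.09% of all genes). The part of the letter and of sex in the mitosis difference was not tested further.

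The number of genes that reached an unadjusted p under 0.05 depended on single hearts. Without wild-type heart 1, 17 mitosis and 8 replication genes were higher at that level (6.90% of all genes), and the mitosis mean difference was 0.57. Without Ezh2-deficient heart 2 the counts were 14 and 6 (4.99% of all genes). Every other omission lowered the mitosis count. It was 6 without wild-type heart 2 (5.95% of all genes), 4 without wild-type heart 3 (4.98%), 1 without wild-type heart 4 (5.24%) and 1 without wild-type heart 5 (4.18%). It was 2 without Ezh2-deficient heart 1 (4.91%), 7 without Ezh2-deficient heart 3 (5.27%) and 1 without Ezh2-deficient heart 4 (5.02%). The replication count in these 7 fits lay between 1 and 4. Without both wild-type hearts 4 and 5, 0 genes of either group reached that level (4.01% of all genes). These hearts had the lowest mitosis means (-0.47 and -0.55), so leaving them out could only lower the mitosis difference. The mitosis mean difference was then 0.22, the replication mean difference 0.09 and the gap between them 0.12. No gene of the set passed after adjustment in any of the 20 alternative settings.

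Other genes of the same processes, read by the same rule, were taken from 4 further lists, and 0 of them passed. Of 41 measured further genes of DNA replication, 25 had a higher mean, against 48.4% of all genes, with a median difference of 0.04. At an unadjusted p under 0.05, 2 were higher and 2 lower, where 5.77% and 5.78% of all genes were, so that these counts lay near the share of all genes. Lig1, the ligase that joins Okazaki fragments, read 7.004 to 7.34 in wild-type and 7.40 to 7.58 in Ezh2-deficient hearts without overlap, a difference of 0.24 with a standard error of 0.07 (limma, adjusted p = 0.28). It was the only 1 of the 41 genes without overlap, where 2.10% of all genes were separated in the higher direction, so this count too lay near that share. Dbf4, the activating subunit of an origin-firing kinase, differed by 0.24 (standard error 0.08). Gins1, part of the active helicase, had a lower mean, at -0.25 (0.10), as did Rfc1, the large subunit of the clamp loader, at -0.14 (0.05). Rfc1 was named after its values were seen, to complete the count.

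Of 48 further mitosis genes, 46 had a higher mean, against 48.4% of all genes, with a median difference of 0.22. At an unadjusted p under 0.05, 13 were higher and 2 lower, beside the same 5.77% and 5.78% of all genes. Without overlap of the groups, 1 of the 48 genes was higher and 1 lower, near the shares of all genes (2.10% and 2.19%). Cdc25b, a phosphatase that activates Cdk1, was the higher one and read 7.33 to 7.63 in wild-type and 7.71 to 7.96 in Ezh2-deficient hearts. It differed by 0.32 with a standard error of 0.08 (limma, adjusted p = 0.232). Ncapg, a condensin subunit, differed by 0.53 (0.17), and Knl1, a kinetochore scaffold, by 0.47 (0.15). The lower ones, named after their values were seen, were Sgo2a, a protector of centromeric cohesion, at -0.30 (0.12) without overlap of the groups, and Pttg1, the securin that restrains separase, at -0.23 (0.10). The per-heart mean of these 48 genes was 0.21, -0.06, -0.10, -0.27 and -0.30 in wild-type and 0.25, -0.08, 0.09 and 0.26 in Ezh2-deficient hearts. The same 3 hearts were the highest and the same 2 the lowest as for the 21 mitosis genes above.

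Of 20 regulators of the E2F, RB and DREAM families, 12 had a higher mean, against 48.4% of all genes, with a median difference of 0.02. At an unadjusted p under 0.05, 1 was higher and 0 lower, where 5.77% and 5.78% of all genes were, so that this count too lay near the share of all genes. The gene was Foxm1, an activator of mitosis genes, which differed by 0.22 (standard error 0.09). Mybl2, its partner on CHR promoters, differed by 0.16 (0.08), and Lin52, a DREAM core subunit, by -0.14 (0.06). Of the replication-dependent histone genes, 7 of 12 were measured and 7 had a higher mean, with a median difference of 0.26 and 4 higher at an unadjusted p under 0.05, beside 48.4% and 5.77% of all genes. H1f5, a linker histone, differed by 0.72 (0.28), H2bc18, a core histone, by 0.40 (0.16), H1f1 by 0.27 (0.09), and H4c4, named after its values were seen, by 0.26 (0.10). Histone genes are near-identical copies in part, so these probe sets can share signal.

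Markers of the cell types in the tissue also differed between hearts. Fibroblast markers had a higher mean for 13 of 14 genes in Ezh2-deficient hearts, with a median difference of 0.45. Their per-heart mean was 0.03, -0.20, -0.24, -0.16 and -0.55 in wild-type and 0.25, 0.34, 0.41 and 0.13 in Ezh2-deficient hearts. In this mean all Ezh2-deficient hearts lay above all wild-type hearts, and wild-type heart 5 was lowest. Ezh2-deficient hearts 2 and 3, the lower of their group in the mitosis mean, were the highest. Single markers differed in their order of hearts. Those given here were named after their values were seen, and how many markers follow each order was not counted. Col1a1 was highest in Ezh2-deficient hearts 1 and 4 (11.71 and 11.62) and fell from 11.37 in wild-type heart 1 to 10.01 in wild-type heart 5. Tcf21 was highest in Ezh2-deficient hearts 2 and 3 (8.72 and 9.15). Of the endothelial markers, Cldn5 was highest among Ezh2-deficient hearts in hearts 1 and 4 (9.53 and 9.42), and Vwf in hearts 2 and 3 (10.37 and 10.55). Endothelial markers had a higher mean for 13 of 13 genes. Their per-heart mean was 0.0919, -0.07, -0.05, -0.14 and -0.39 in wild-type and 0.16, 0.0904, 0.17 and 0.13 in Ezh2-deficient hearts. Wild-type heart 1 lay just above Ezh2-deficient heart 2, so the groups overlapped. Wild-type hearts 4 and 5 were the lowest, as in the mitosis mean. Macrophage markers had a higher mean for 10 of 11 genes, with a per-heart mean from -0.36 to 0.06 in wild-type and from -0.06 to 0.27 in Ezh2-deficient hearts. Smooth muscle and pericyte markers ran from -0.30 to 0.03 in wild-type and from -0.05 to 0.19 in Ezh2-deficient hearts, and wild-type heart 5 was again the lowest. Cardiomyocyte markers had a higher mean for 2 of 13 genes and a median difference of -0.06.

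Blood cell markers stood high in Ezh2-deficient heart 3, and neutrophil markers also in wild-type heart 4. Ezh2-deficient heart 3 had the highest mean of T cell (0.46), B cell (0.44) and erythroid (0.68) markers, and in it the mitosis mean was 0.13, below Ezh2-deficient hearts 1 and 4. Without that heart the mitosis median difference was 0.44 and the replication median difference 0.13. Of the erythroid markers 6 of 14 were measured. Neutrophil markers ran from -0.13 to 0.27 (heart 4) in wild-type and from -0.08 to 0.25 in Ezh2-deficient hearts. Epicardial markers ran from -0.20 to -0.0041 in wild-type and from -0.08 to 0.41 in Ezh2-deficient hearts. Ezh2-deficient heart 3 also had the highest epicardial mean (0.41) and the lowest cardiomyocyte mean (-0.18) of all hearts, so it stood apart in more than blood cell markers. The lowest single log2 value of any list was 3.29, so no marker was at 0, and whether low values exceed background was not tested. The part of these cell types in the replication and mitosis differences was not tested.

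**Figure D5:**
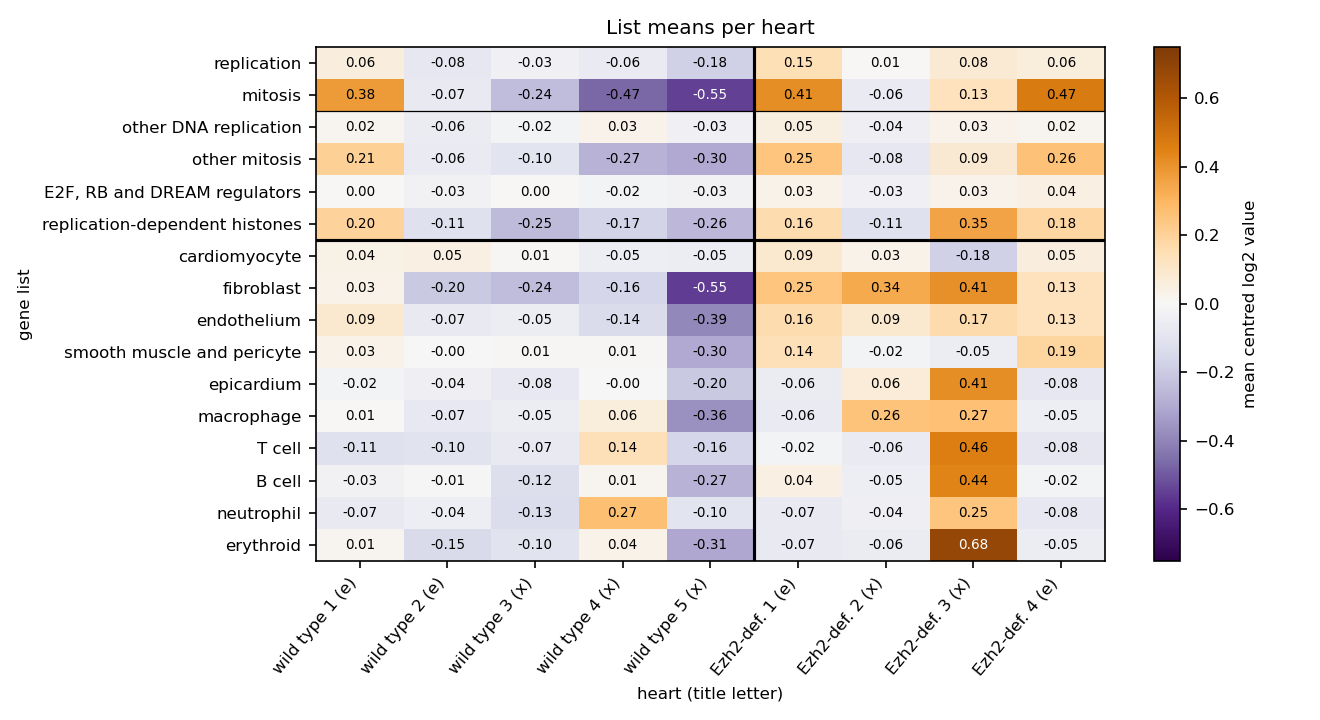
Per-heart means of the centred log2 values (colour and printed value) for the replication and mitosis genes, the further cell cycle lists and the cell type marker lists (vertical axis), in each heart with the letter of its title (horizontal axis). Wild-type heart 1 and Ezh2-deficient hearts 1 and 4 are the highest for mitosis genes (0.38, 0.41 and 0.47), while the fibroblast list mean is highest in Ezh2-deficient hearts 2 and 3 (0.34 and 0.41).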

How the data were processed

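Per the labels, total RNA of 1 right ventricle with septum per array was isolated with TRIzol, labelled with biotin and hybridised to Affymetrix arrays, and the labels speak of 5 and 4 mice. The deposited values are log2 expression values per probe set, made by the authors with RMA in Affymetrix Power Tools per the submitters' processing notes, with versions not given in the sources used here. The table held 0 further columns of values. Replicate numbers follow sample order and pair nothing. Of 28815 probe sets, 21780 carried 1 symbol in the platform annotation, 1605 several and 5430 none. Every probe set was fitted with limma 3.58.1 in R 4.3.3 (lmFit and eBayes on all 9 arrays, with genotype alone in the model, two-sided), and p-values were adjusted by Benjamini-Hochberg over all 28815 with a threshold of 0.05. The fit was tested on simulated data. Differences are Ezh2-deficient minus wild type, and folds are 2 to their power. The number of arrays limits the precision: the median standard error over probe sets was 0.0674. The 40 genes, the other lists and the tests were chosen with earlier results of these data known, so no p is given for a list. Values in every heart are given for genes without overlap between groups, for the 4 replication and 4 mitosis genes with the smallest p, for the 2 of each with the largest difference, and for 9 measured genes chosen for their role; from each further cell cycle list the 3 genes with the smallest p are named. Alternatives were a further quantile normalization, median centring, a filter on dim probe sets, the title letter as a block, Y-linked expression as a covariate, array weights, a trended robust variance, the mean of all probe sets of a gene, omission of wild-type hearts 4 and 5, each letter alone, and omission of each heart. Promoter windows and gene symbols came from RefSeq tables.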

Additional observations from a re-analysis of the deposited data

Results flagged for a closer look

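Groups of 4 or 5 hearts were searched for a highest or lowest heart far from the others by Dixon's criterion, over the 17 genes given in every heart, the marker lists and the group means. Of 68 groups 6 met it, and chance gives about 1 in 20. For Tyms, Ezh2-deficient heart 4 read 6.79 while the next heart read 6.60. The smooth muscle and pericyte mean of wild-type heart 5 was -0.304, and the next was -0.0014. Ezh2-deficient heart 3 stood above its group in the T cell mean, at 0.4625 with the next at -0.0223. It did so too in the erythroid mean, at 0.6808 with the next at -0.0476, and in the neutrophil mean, at 0.2491 with the next at -0.0354. In wild type the neutrophil mean of heart 4 was 0.2749, and the next was -0.0434. No difference between genotypes in the 17 genes was retested on these grounds.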

How the results depend on the processing

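Each of 20 alternatives left 0 replication and 0 mitosis genes past the threshold and kept the sign of the 3 mean differences: 0.09 to 0.16 for replication, 0.22 to 0.57 for mitosis and 0.12 to 0.41 for mitosis minus replication. Of the 17 genes given in every heart, Mcm2 alone changed sign, to -0.0351 without wild-type hearts 4 and 5, to -0.012 within letter e and to -0.0022 without wild-type heart 5; leaving out 1 heart gave -0.0022 to 0.0873. Probe sets past the threshold, 10 in all, became 17 with median centring, 20 without dim probe sets, 17 with the letter block, 3 with the Y-linked covariate, 37 with array weights, 17 with the mean of all probe sets, 5 without wild-type hearts 4 and 5, 0 within letter e and 0 within letter x. Leaving out 1 heart gave 3 to 15. Replication genes higher at an unadjusted p under 0.05, 5 in all, became 2 with the Y-linked covariate, 0 without wild-type hearts 4 and 5, 1 within letter e, 1 within letter x, and 1 to 8 leaving out 1 heart. The 9 mitosis genes became 15 with the letter block, 0 without wild-type hearts 4 and 5, 1 within letter e, and 1 to 17 leaving out 1 heart. Fewer hearts entered the fits that left hearts out; otherwise the cause was not tested. The filter on dim probe sets left out Bub1. No paired analysis was possible because the replicate numbers only follow the order of the samples.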
